A study of Mus musculus with 2 samples.

Results

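T cells that carried the mRNA of the T cell receptor delta constant gene, Trdc, were described in tumors of mice with and without the pentose phosphate enzyme 6-phosphogluconate dehydrogenase (6PGD, encoded by Pgd) in myeloid cells. A barcode was a member when it had at least 1 Trdc UMI (a UMI is 1 counted mRNA molecule), at least 2 UMIs over Cd3d, Cd3e and Cd3g, fewer than 10 over C1qa, C1qb and C1qc, no Foxp3 UMI, at most 1 over Ncr1 and Klrb1c, and at most 2 over Mki67 and Top2a, after barcodes outside 500 to 7500 detected genes or above 15% mitochondrial UMIs had been removed. These counts chose the cells and are therefore a description, with no test. The gates held 80 of 6363 kept barcodes, 52 of 3565 in the library labelled WT, from Pgd fl/fl mice, and 28 of 2798 in the library labelled 6PGDKO, from mice that were Pgd fl/fl LysM-Cre. They are called Trdc+ T cells here, and the 1975 T cells that passed the same gates with no Trdc UMI are called other T cells.

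Both libraries were single-cell RNA from sorted leukocytes of tumors grown from AT3, a mouse mammary carcinoma line, in the mammary fat pad and taken on day 30 from female mice of 6 to 12 weeks of age, with 10 mice pooled per genotype. Both genotypes carried the loxP-flanked Pgd alleles. Only the second carried Cre under the lysozyme M (Lyz2) promoter, which is active in myeloid cells and is not a T cell promoter. The labels name both a CD45+ and a CD11b+ sort, and T cells were present in both libraries. With 1 library per genotype and mice not told apart, no replicate spread could be measured, so no test was made, and each interval below is a 95% interval that covers counting error only. The libraries shared 0 cell barcodes, and in all 52 and all 28 Trdc+ T cells the multiplexing oligonucleotide of the cell's own library had the higher count. The paper states that the sorted suspensions of the genotypes were pooled. If these oligonucleotides then assigned barcodes to libraries, both results follow from that step and are no independent check.

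Most T cells recognise antigen with a receptor of an alpha and a beta chain, whereas gamma-delta T cells pair a gamma with a delta chain and can respond without classical peptide presentation. Mouse gamma-delta T cells are known to fall into a type 17 lineage, which makes interleukin 17, and an interferon gamma lineage, which shares cytotoxic and natural killer (NK) receptor genes with NK cells. In tumors, interleukin 17 from such cells is known to recruit myeloid cells, and interferon gamma to act against tumor cells.

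The promoters of the cytokine pair that defines the type 17 lineage are shown because the counts of Il17a and Il17f are described below. Both are the 250 bases before a RefSeq start site in the GRCm38.p6 build, written 5′ to 3′ on the gene's own strand, with AGGTCA or its reverse complement TGACCT, a core motif of nuclear receptors, in capitals. Il17a lies at chr1:20730905-20734496 and its window at chr1:20730655-20730904 on the plus strand.
Il17a: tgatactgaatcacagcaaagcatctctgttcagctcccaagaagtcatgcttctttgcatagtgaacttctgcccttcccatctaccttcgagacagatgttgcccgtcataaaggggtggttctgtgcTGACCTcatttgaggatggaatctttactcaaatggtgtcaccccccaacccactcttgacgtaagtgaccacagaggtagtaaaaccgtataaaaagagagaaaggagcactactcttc
Il17f lies at chr1:20777146-20785274 on the minus strand, and the window of 1 of its start sites is chr1:20784271-20784520.
Il17f: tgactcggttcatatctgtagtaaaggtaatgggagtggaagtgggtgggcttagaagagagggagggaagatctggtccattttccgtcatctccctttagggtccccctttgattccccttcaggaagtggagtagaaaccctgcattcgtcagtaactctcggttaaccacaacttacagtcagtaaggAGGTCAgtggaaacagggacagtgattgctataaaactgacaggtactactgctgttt
The match began 120 bases before the Il17a start site and 58 bases before that of Il17f. The same letters, on either strand, stood in 4607 of 32851 windows of this length (14.0%), so a match describes the sequence and is not a measured binding site.

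Trdc+ T cells carried gamma chain constant transcripts more often than other T cells, but the alpha chain was not absent. Trdc (chr14:54142851-54146108) reached 875 CPM (UMIs of the gene scaled to the same total in each set of cells) in WT and 772 in 6PGDKO, with a median of 4 and 4.5 UMIs per cell. At the threshold itself, 16 of 52 and 3 of 28 cells had exactly 1 Trdc UMI. C1q macrophages, a cell type that should lack Trdc, had a UMI of it in 2 of 569 and 1 of 536 cells, with median depths of 11550 and 11778 UMIs against 5095 and 6239 in Trdc+ T cells.

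Tcrg-C1, the constant gene of 1 gamma chain cluster, was not used by the rule. It was at 158 CPM in the WT cells and 164 CPM in the 6PGDKO cells, against 7.30 and 13.7 CPM in other T cells, and it had a UMI in 1 macrophage of each library. A UMI of Tcrg-C1, Tcrg-C2 or Tcrg-C4 was found in 34 of 52 and 23 of 28 Trdc+ T cells. Among other T cells, those just outside the rule, it was found in 157 of 1280 and 153 of 695. Gamma constant genes are related copies, so reads may be split between some of them.

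Trac, the alpha chain constant gene, had a UMI in 25 of 52 and 13 of 28 Trdc+ T cells, at 178 and 193 CPM. In other T cells it had a UMI in 1121 of 1280 and 610 of 695, at 505 and 475 CPM. In C1q macrophages, which should lack it, the shares were 24 of 569 and 25 of 536 cells, so the Trac share of Trdc+ T cells was above background and below that of other T cells. Of the 80 cells, 31 had a gamma constant UMI and no Trac UMI, 26 had both, 12 had Trac alone and 11 had neither. Trbc1 or Trbc2, the beta chain constant genes, had a UMI in 50 of 52 and 27 of 28 Trdc+ T cells. In other T cells the counts were 1248 of 1280 and 667 of 695, so beta chain detection did not separate the sets. Cd8a or Cd8b1, the CD8 coreceptor chains, had a UMI in 22 of 52 and 11 of 28 cells, and in 18 of the 80 cells CD8 and Trac were found together. Cd4 was found in 1 and 4 cells. Of the 4 markers named for gamma-delta T cells, Trdc was fixed by the rule, Tcrg-C1 and Il17a were found in part of the cells, and Ccl20, a chemokine, had 0 UMIs in 80 cells, which at a floor of 3 counts allows up to 3.75% of cells with a UMI and does not limit cells that express it unseen. The label of a gamma-delta T cell was thus borne out by the gamma chain in most cells. It went against Ccl20 and, in 38 of 80 cells, against Trac, and 77 of 80 cells held a beta chain UMI. For this reason the cells are named by the rule.

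**Figure D1:**
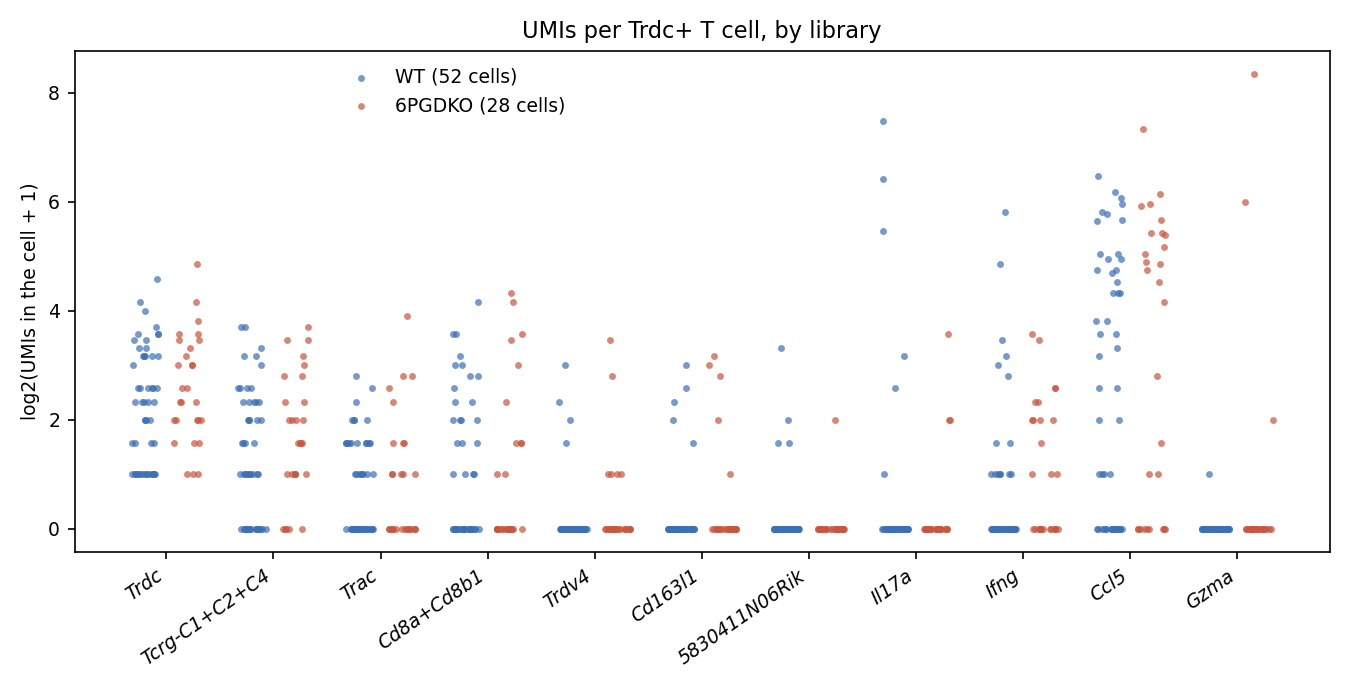
UMIs of 11 genes or gene sums in each Trdc+ T cell on a log2(UMIs + 1) axis, with 1 point per cell, 52 WT cells in blue and 28 6PGDKO cells in red, and sideways scatter only to separate points. Trdc is at least 1 by the rule, Il17a reaches 178 UMIs in 1 WT cell and 11 in 1 6PGDKO cell, and Gzma reaches 327 UMIs in 1 6PGDKO cell.

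UMIs over a short list of type 17 markers were all or none. Over 10 type 17 markers, among them Il23r, Il17a, Il17f, Il17re, Blk, Sox13, Ccr6, Cd163l1 and 5830411N06Rik, 16 of the 80 cells had between 2 and 187 UMIs, 64 had 0, and 0 had exactly 1. The split was one of this list. Of those 64 cells, 42 of 42 in WT and 21 of 22 in 6PGDKO had a UMI of the 40 type 17 genes used below. The 16 cells were 10 of 52 in WT (19.2%, 9.63 to 32.5%) and 6 of 28 in 6PGDKO (21.4%, 8.30 to 41.0%). The difference was 2.20 percentage points (-14.7 to 22.2), so a difference was not detectable at this number of cells. After thinning to 2000 UMIs and gating again, 11.1% of 45 and 33.3% of 18 cells were marked, a difference of 22.2 points (1.14 to 46.0). When Il17a and Il17f were left out of the list, the count remained 10 and 6. Each of the 9 cells with an Il17a UMI had a second marker of the list.

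Il17a itself lay in few cells. In WT, 6 of 52 cells held 178, 85, 43, 8, 5 and 1 UMIs. In 6PGDKO, 3 of 28 cells held 11, 3 and 3 UMIs. The shares of cells with a UMI were 11.5% and 10.7%, while the summed levels were 1033 and 71.3 CPM, a log2 ratio of -3.86 (-4.65 to -3.15). The top cell held 55.6% of the WT UMIs and 64.7% of the 6PGDKO UMIs, so the ratio of levels rests on single cells and says nothing of the number of cells. Il17f, the second cytokine of the pair, had 23, 9 and 3 UMIs in 3 WT cells and 0 in 6PGDKO. In other T cells Il17a had a UMI in 18 of 1280 and 25 of 695 cells, at 15.98 and 37.8 CPM, and in C1q macrophages in 1 of 569 and 2 of 536.

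Cd163l1 and 5830411N06Rik encode a pair of related scavenger receptors, SCART1 and SCART2, known from gamma-delta T cells. As related copies they may share reads. Cd163l1 was found in 10 cells, 5 per library, and 5830411N06Rik in 5 cells, 4 in WT and 1 in 6PGDKO, and 0 cells held both. The variable gene Trdv4 had a UMI in 9 of the 10 Cd163l1 cells and in 0 of the 5 5830411N06Rik cells. This pairing was chosen after its values were seen. Trdv4 was found in 9 of the 16 type 17-marked cells and in 1 of the other 64, while among barcodes of an NK gate, which should lack a rearranged delta chain, 7 of 36 and 2 of 51 had a Trdv4 UMI, never more than 1 per cell. The Trdv4-carrying type 17-marked cells had between 1 and 10. Cells with Cd163l1 included 7 of the 9 Il17a cells.

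In WT, the cell with the most Il17a held 178 Il17a UMIs, 15 Trdc, 8 gamma constant UMIs, 7 Trdv4 and 2 Cd163l1 UMIs, but also 4 Trac UMIs. The cell next to it in rank held 85 Il17a and 23 Il17f UMIs with 5 Trdc and 5 Trac UMIs and no gamma constant or Trdv4 UMI. Over the 16 marked cells, 12 had a gamma constant UMI and 6 had a Trac UMI.

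Some type 17 genes outside the marker list also set the 16 type 17-marked cells apart from the other 64. This is a description of cells that were chosen by their own transcripts. Ccr2, a chemokine receptor of cells that enter inflamed tissue, had a UMI in 12 of 16 and 3 of 64 cells, at 281 and 21.8 CPM. Serpinb1a, a protease inhibitor, had a UMI in 12 of 16 and 2 of 64 cells. Actn2, a muscle-type alpha-actinin, had one in 12 of 16 and 4 of 64 cells. Tmem176a and Tmem176b, which encode a pair of membrane proteins and lie side by side, had one in 14 and 13 of 16 cells, against 3 and 5 of 64. The transcription factors Maf and Rora were found in 13 and 15 of 16 cells, against 9 and 10 of 64. Myeloid cells can also express several of these genes, and 3 of the 16 marked and 3 of the 64 other cells held at least 10 UMIs of 6 myeloid genes. Without them Ccr2 was found in 9 of 13 and 2 of 61 cells, Tmem176b in 10 and 4, and Maf in 10 and 7. Other type 17 genes did not set the marked cells apart in this way. Over all cells, Ahr was found in 4 of 16 and 27 of 64, at 51.8 and 126 CPM. Il1rl1 was found in 0 and 4 cells, Sox4 in 1 and 3, and Lgals3 in 8 and 23.

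Part of the cytotoxic and NK receptor genes showed the opposite pattern. Ccl5, a chemokine of cytotoxic cells, had a UMI in 2 of 16 marked and 50 of 64 unmarked cells, at 304 and 3739 CPM. Klrd1, the CD94 chain of NK receptors, had one in 2 and 40 cells. Klrc2, Tbx21 and Eomes, an NK receptor chain and the transcription factors of the interferon gamma lineage, were at 0 in the 16 marked cells and had a UMI in 14, 11 and 11 of the 64. The interval of 0 of 16 reaches 20.6%, against 21.9%, 17.2% and 17.2% of the 64 cells. A difference in Klrc2, Tbx21 and Eomes was thus not detectable at this number of cells. Ifng did not follow the split of Ccl5 and Klrd1 as closely, with a UMI in 4 of 16 and 25 of 64 cells. Others were found at similar shares in both sets, with Gzmb in 6 of 16 and 21 of 64 cells, Prf1, which encodes perforin, in 3 and 8, Klrk1, the activating receptor NKG2D, in 9 and 27, and Cst7, a protease inhibitor of cytotoxic cells, in 7 and 26.

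The marked cells were deeper, with medians of 7783 and 8040 UMIs against 4617 and 6239, and a deeper cell shows more genes. When every cell was thinned to 1800 UMIs, which lost no cell, Ccr2 was found in 7 of 16 and 2 of 64, Serpinb1a in 6 and 0, Tmem176b in 9 and 4, Maf in 10 and 4, Ccl5 in 2 and 45, and Klrd1 in 1 and 23. Il1r1, the interleukin 1 receptor, fell from 6 to 1 of the 16 marked cells on thinning and can thus not be compared. Cd8a was similar in both sets, in 4 of 16 and 19 of 64 cells.

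**Figure D2:**
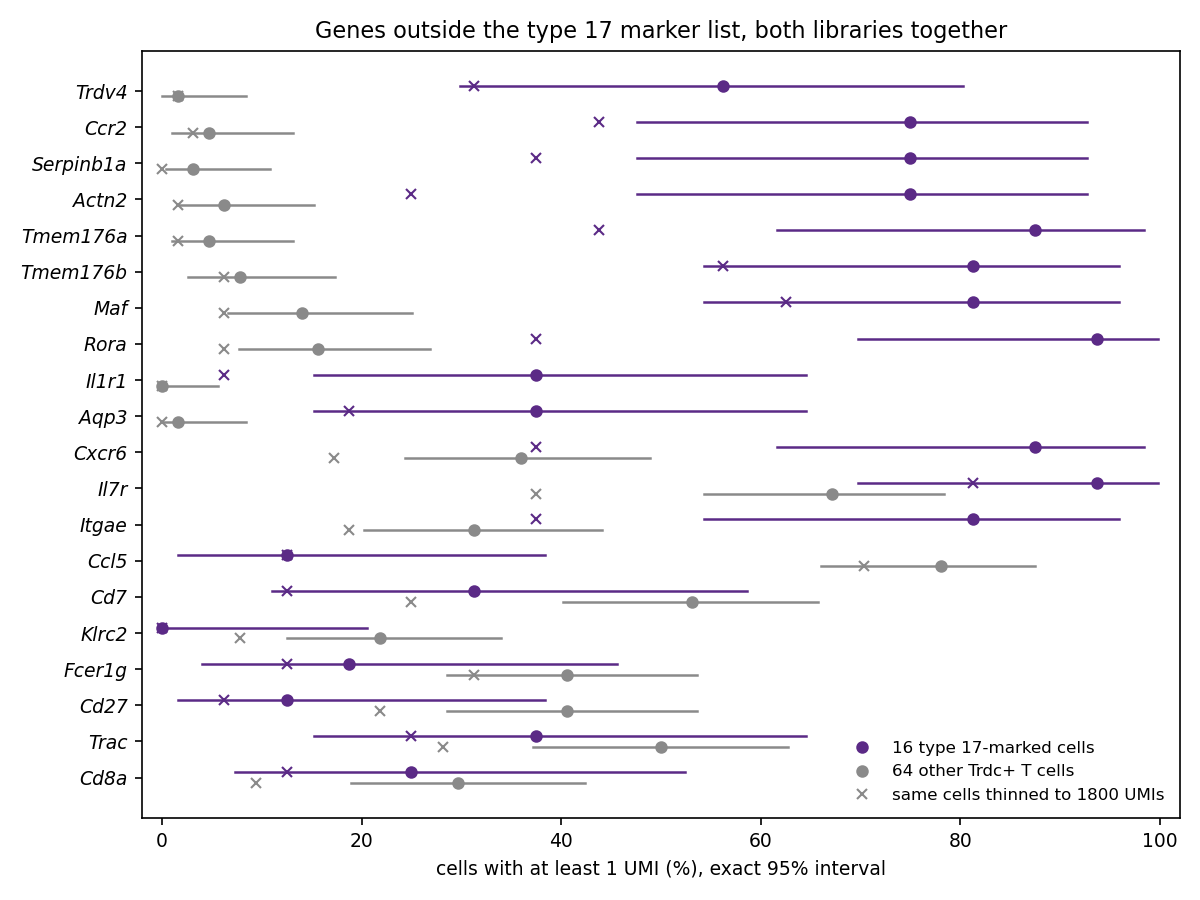
Percent of cells with at least 1 UMI of 20 genes outside the type 17 marker list, for the 16 type 17-marked cells in purple and the 64 other Trdc+ T cells in gray, with both libraries together. Filled points and lines give the share and its exact 95% interval, crosses the share after thinning to 1800 UMIs, and Ccr2 is at 75.0% against 4.69% while Ccl5 is at 12.5% against 78.1%.

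Most Trdc+ T cells carried transcripts of the interferon gamma and cytotoxic program, and so did most other T cells. At least 2 UMIs over 12 markers of that program (Ifng, Tbx21, Eomes, Gzma, Gzmb, Gzmk, Prf1, Nkg7, Klrd1, Klrk1, Klrc1 and Xcl1) were found in 38 of 52 WT cells (73.1%, 59.0 to 84.4%) and 26 of 28 6PGDKO cells (92.9%, 76.5 to 99.1%). The difference was 19.8 percentage points (1.25 to 34.1), and it was 3.33 points (-22.5 to 24.4) when cells were thinned to 2000 UMIs, with medians of 5095 and 6239 UMIs before thinning. Of the 64 interferon gamma-marked cells, 53 had no type 17 UMI and 11 had both sets. The 11 cells with neither set were all in WT. Among other T cells, 1127 of 1280 in WT and 649 of 695 in 6PGDKO had a UMI of 16 effector genes of this program. This is a different list and a lower threshold than the 12 markers. By the same measure, 9 of 10 type 17-marked and 38 of 42 unmarked Trdc+ T cells had a UMI in WT. In 6PGDKO these were 5 of 6 and 22 of 22. Set against other T cells, 9 of these 16 genes lay above 0 in WT and 5 in 6PGDKO. Their median log2 ratios were 0.16 and -0.32, so the effector genes were not particular to Trdc+ T cells.

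Within this program the summed levels moved in different directions between the libraries, and single cells carried much of several of these levels. Ifng, the cytokine itself, had a UMI in 15 of 52 and 14 of 28 cells, at 403 and 235 CPM, and 1 WT cell held 55 of its 125 UMIs. Its log2 ratio was -0.78 (-1.26 to -0.31), and -0.39 (-0.88 to 0.09) without 6 cells that held myeloid RNA, described below. Gzmb, a granzyme of killing cells, had a UMI in 11 of 52 and 16 of 28 cells, at 207 and 562 CPM, a log2 ratio of 1.44 (1.004 to 1.90), and 2.09 without those cells. One 6PGDKO cell held 43.3% of the 134 Gzmb UMIs, and without it the log2 ratio was 0.67. Gzma, a second granzyme (chr13:113093824-113100981), had 1 UMI in WT and 327, 63 and 3 UMIs in 3 6PGDKO cells, so 1 cell carried most of it. Xcl1, a chemokine for cross-presenting dendritic cells, was at 800 and 516 CPM. One WT cell held 79 Xcl1 UMIs and another 70, while no 6PGDKO cell held more than 29. The higher WT level of Xcl1 thus rests on few cells. Ccl5 was at 2776 and 3045 CPM.

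Set against other T cells of the same library, Trdc+ T cells were higher in NK receptor genes and lower in checkpoint and coreceptor genes in both libraries. Both comparisons are descriptions, since the cells were chosen by their transcripts and the NK gate bounded Ncr1 and Klrb1c. Over all genes with at least 10 UMIs in the pair of cell sets, 8.4% of 9789 were at least 2-fold higher and 8.39% at least 2-fold lower in the Trdc+ T cells of WT, and 8.2% and 10.6% of 9436 in 6PGDKO. A ratio above 0 was found for 52.3% and 47.2% of these genes. The median log2 ratios over all these genes were 0.03 and -0.04.

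Of 12 NK receptor genes, 12 lay above 0 in WT and 9 in 6PGDKO, with medians of 0.79 and 0.62 on the log2 scale, and 4 and 2 of them were at least 2-fold higher. Klrc2 was at 45.2 and 54.5 CPM against 13.9 and 21.4 CPM in other T cells, log2 ratios of 1.70 and 1.35. Klra7, an inhibitory Ly49 receptor whose family members share sequence, had log2 ratios of 1.59 and 1.74. Fcer1g, the signalling chain of Fc and NK receptors, was at 236 and 394 CPM against 95.8 and 207 CPM. C1q macrophages held it at 2564 and 2370 CPM, and without the 6 cells with myeloid RNA its UMIs went from 73 and 94 to 70 and 50. The defining NK genes Ncr1, Klra4 and Klra8 had 0 UMIs in the 80 cells, Ncr1 being bounded by the gate.

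Of 12 checkpoint and costimulatory receptor genes, 10 lay below 0 in each library, with medians of -0.79 and -0.96. Tnfrsf4, which encodes OX40, was at 54.9 and 46.1 CPM against 214 and 298 CPM, log2 ratios of -1.97 and -2.69. Ctla4, an inhibitory receptor, was at 74.2 and 16.8 CPM against 206 and 238 CPM. Pdcd1, which encodes PD-1, had log2 ratios of 0.25 and -0.92 and did not keep a direction. Of 8 coreceptor and costimulator genes, 7 and 8 lay below 0, with Cd8a at -1.26 and -1.19.

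Of the 40 type 17 genes, different numbers were counted against other T cells in the libraries, and the difference between the libraries was not tested. In WT, 24 of 36 counted genes lay above 0, with a median log2 ratio of 0.61 (-0.16 to 1.68), and 15 were at least 2-fold higher. In 6PGDKO, 15 of 29 lay above 0, with a median of 0.04 (-0.21 to 0.89), and 7 were at least 2-fold higher. After thinning to 2000 UMIs the medians were 0.11 and 0.28. The surface and effector genes of the list stood above other T cells in both, with Cd163l1 at 67.8 and 105 CPM against 2.07 and 2.11 CPM, and Actn2 at 67.8 and 58.7 CPM against 16.1 and 13.5 CPM. Blk, a kinase of the lineage, had log2 ratios of 3.12 and 5.90 from 10 and 9 UMIs.

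Genes named by the widest ratios held in both libraries included more than these lists. Higher in Trdc+ T cells were Rbpms, an RNA-binding protein, with log2 ratios of 2.20 and 2.54, Smox, which encodes spermine oxidase, with 1.84 and 1.75, Spry2, a feedback inhibitor of growth factor signalling, with 2.26 and 1.74, Plac8 with 1.24 and 0.90, Gpx1, a glutathione peroxidase, with 0.98 and 0.70, and Jun with 0.58 and 0.55. Lower were Ccl1, a chemokine, with 0 and 1 UMIs in Trdc+ T cells against 977 and 1014 in other T cells, and Tff1, Penk, Fscn1, Igfbp5, H2-M2 and Tbc1d4. Tff1, a secreted peptide of epithelia, had 0 UMIs in both sets of Trdc+ T cells against 407 and 602 UMIs in other T cells. At a floor of 3 UMIs over the group, this was a log2 ratio of -2.53 or lower and -3.34 or lower.

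**Figure D3:**
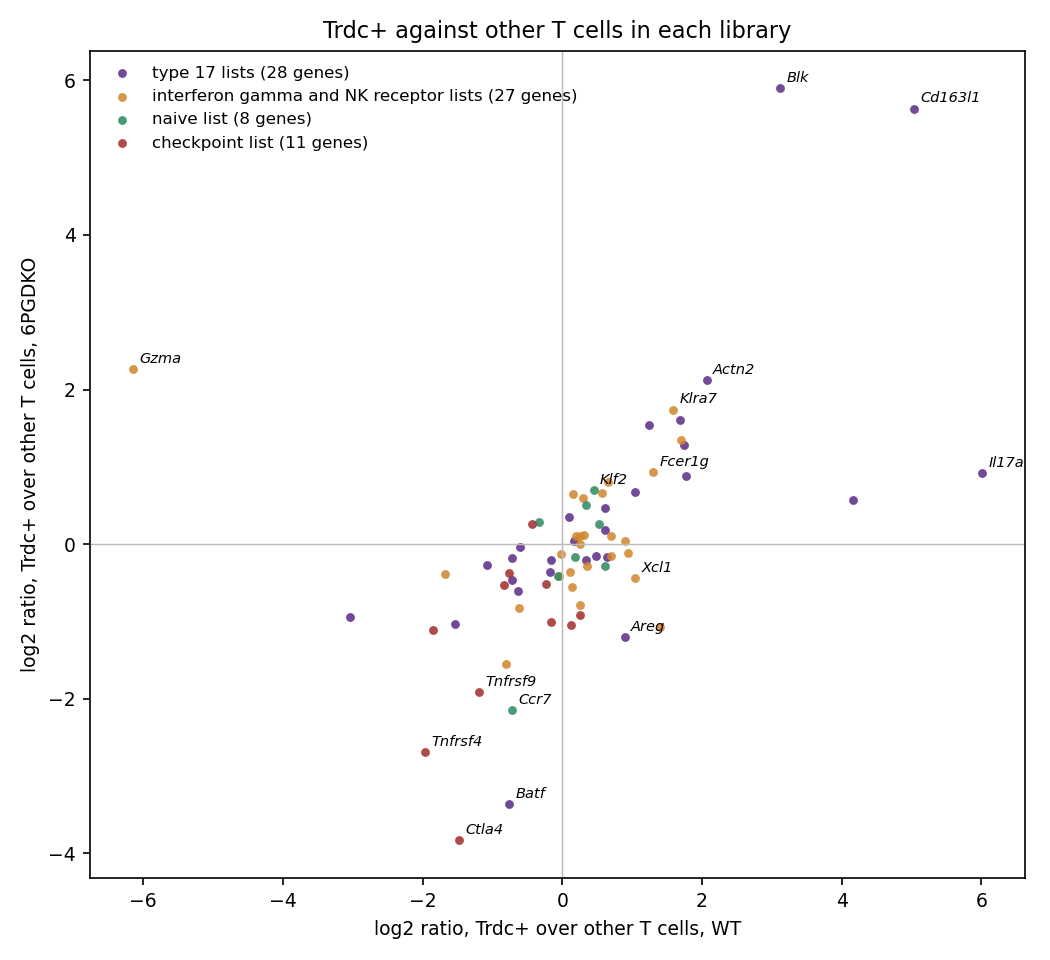
Log2 ratio of summed UMIs, Trdc+ T cells over other T cells, in WT (horizontal) and 6PGDKO (vertical), with 1 point per gene that had UMIs in both sets of Trdc+ T cells. Checkpoint genes lie mostly to the lower left with Tnfrsf4 at -1.97 and -2.69, Cd163l1 lies at 5.04 and 5.63, and Gzma lies at -6.15 and 2.26, from 1 and 393 UMIs.

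Variable segments were sparse. A UMI of any of 13 listed gamma and delta variable genes or of Trgv2 was found in 22 of 52 and 21 of 28 cells. Trgv2 was the most frequent, in 13 and 12 cells, at 61.3 and 88.1 CPM against 24.1 and 28.7 CPM in other T cells. Tcrg-V4, Tcrg-V6 and Tcrg-V1, variable genes of the known gamma-delta subsets, were found in 5, 3 and 4 of the 80 cells, too few to assign subsets.

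The share of Trdc+ T cells was compared next, since the study asked how myeloid 6PGD loss changed the immune cells of the tumor. They made up 1.46% (1.09 to 1.91%) of kept barcodes in WT and 1.00% (0.666 to 1.44%) in 6PGDKO, a difference of -0.458 percentage points (-1.002 to 0.102). Among T cells of the same gates they made up 3.90% (2.93 to 5.09%) and 3.87% (2.59 to 5.55%), a difference of -0.0312 points (-1.70 to 1.87). A difference among T cells was not detectable at this number of cells. Among kept barcodes the interval left 0 when cells were thinned to 2000 UMIs, at -0.634 points (-1.14 to -0.121). A sort fixed which leukocytes entered each library, so these are shares of sorted cells.

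Trdc UMIs also occurred in barcodes that the gates left out. Of 95 WT and 69 6PGDKO kept barcodes with a Trdc UMI, 12 and 11 had fewer than 2 CD3 UMIs. Of those with CD3, the NK gate left out 11 and 10, the C1q gate 9 and 14, Foxp3 8 and 9, and the cycling gate 11 and 9, with overlaps. The cycling barcodes held 68 and 101 Trdc UMIs, a median of 5 and 8 per barcode, above the 4 and 4.5 of the members. The 9 and 14 barcodes with C1q RNA held 55 and 80 Trdc UMIs, so the number of Trdc+ T cells depends on these gates.

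For the genotype comparison within Trdc+ T cells, Pgd itself (chr4:149149991-149166705) was read first. It had 9 UMIs in 9 of 52 WT cells and 6 UMIs in 4 of 28 6PGDKO cells, 29.0 and 25.2 CPM, a log2 ratio of -0.21 (-1.98 to 1.45). In other T cells it was at 23.98 and 29.8 CPM, and in C1q macrophages, where the Cre is active, at 108 and 29.6 CPM. At this depth neither loss nor unchanged expression could be shown, and Pgd reads outside the deleted part would not report the deletion.

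Across 5339 genes with at least 10 UMIs in the 80 cells, 9.03% were at least 2-fold higher and 9.2% at least 2-fold lower in 6PGDKO, and 50.1% lay above 0. In other T cells 7.87% of 12402 genes were at least 2-fold higher, 3.27% at least 2-fold lower, and 64% lay above 0, with a median log2 ratio of 0.12. Values of both sets are given side by side below. They differ in depth, and the difference between the sets was not tested.

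Genes of the naive and lymph node homing program were lower in 6PGDKO Trdc+ T cells. All 8 genes of that list lay below 0, with a median log2 ratio of -1.01, and 4 were at least 2-fold lower. Lef1, a transcription factor of naive T cells, had 42 and 7 UMIs, 136 and 29.4 CPM, a log2 ratio of -2.21 (-3.61 to -1.04). Tcf7, the partner of Lef1, had 85 and 26 UMIs, a log2 ratio of -1.33 (-2.02 to -0.68). After thinning to 2000 UMIs the intervals of Lef1 (-7.79 to 0.36) and Tcf7 (-8.07 to 0.0083) reached 0, at 1 UMI of each in 6PGDKO. Ccr7, the receptor for lymph node homing, was at 152 and 67.1 CPM, and Klf2, a transcription factor that sustains S1pr1, at 2379 and 1833 CPM. In other T cells 7 of the 8 genes lay below 0, with a median of -0.81. Lef1 was there at -1.85 and Tcf7 at -1.06, while Ccr7 was at 0.25.

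Other genes with the widest ratios below 0 were Nmrk1, a kinase of NAD synthesis, with 33 and 4 UMIs and a log2 ratio of -2.67 (-4.62 to -1.17), Cited2, a transcriptional coregulator, with 82 and 23 UMIs, Plcxd2 with 32 and 6, Dusp2, a phosphatase of activated lymphocytes, with 188 and 66, Ifi206 with 41 and 10, Gm8369 with 53 and 15, and Ms4a6b with 156 and 59. One cell held 45.5% of the WT Nmrk1 UMIs and 1 held 42.7% of those of Cited2. After thinning to 2000 UMIs both had a log2 ratio of 0, from 5 and 2 Nmrk1 UMIs and 15 and 6 Cited2 UMIs, and without cells with a Trac UMI they were at -0.76 (-3.35 to 1.37) and -0.54 (-1.67 to 0.52). In other T cells Nmrk1 was at 0.64 and Cited2 at 0.09. Dusp2 was spread over 37 of 52 and 16 of 28 cells, with a log2 ratio of -1.13 (-1.56 to -0.72) against -0.15 in other T cells.

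The genes with the widest ratios above 0 were myeloid and antigen presentation genes, and they lay in few cells. Cd74, the class II invariant chain, had 77 UMIs in 25 WT cells and 1100 UMIs in 20 6PGDKO cells, a log2 ratio of 4.21 (3.88 to 4.57). H2-Aa, H2-Ab1 and H2-Eb1, the class II chains, had ratios of 4.004, 3.76 and 3.83. Il1b, a myeloid cytokine, had 12 and 205 UMIs, and 82.4% of the latter were in 1 cell. Cst3, Mt1, Ppt1, Ifi30 and Ctss completed this group. Over 12 macrophage markers the summed level was 642 and 7333 CPM, against 1817 and 3978 CPM in other T cells, with 10 and 12 of the markers found in Trdc+ T cells, and Lyz2 and Adgre1 were at 0 in WT. Per cell the sum ranged from 0 to 39 and from 1 to 644 UMIs. Dendritic cell markers, at 0 of 6 in WT, were found for 5 of 6 in 6PGDKO, at 96.5 CPM.

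Leaving out the cells with at least 10 UMIs over Lyz2, Csf1r, Cd68, Cd74, H2-Aa and Apoe, a step added after the data were seen, removed 2 of 52 and 4 of 28 cells. These 6 cells held 65 and 1616 UMIs of the 6 genes, and the cells that stayed held 87 and 66. The 4 6PGDKO cells had 12134 to 29292 UMIs in all but 1 or 2 Trdc UMIs each. Without them Cd74 was at 0.26 (-0.53 to 1.03), H2-Ab1 at -0.72, H2-Eb1 at -0.78 and Il1b at -2.59. Of the naive genes, 8 of 8 were then below 0, with a median of -0.97, Lef1 at -2.49 and Tcf7 at -1.40.

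**Figure D4:**
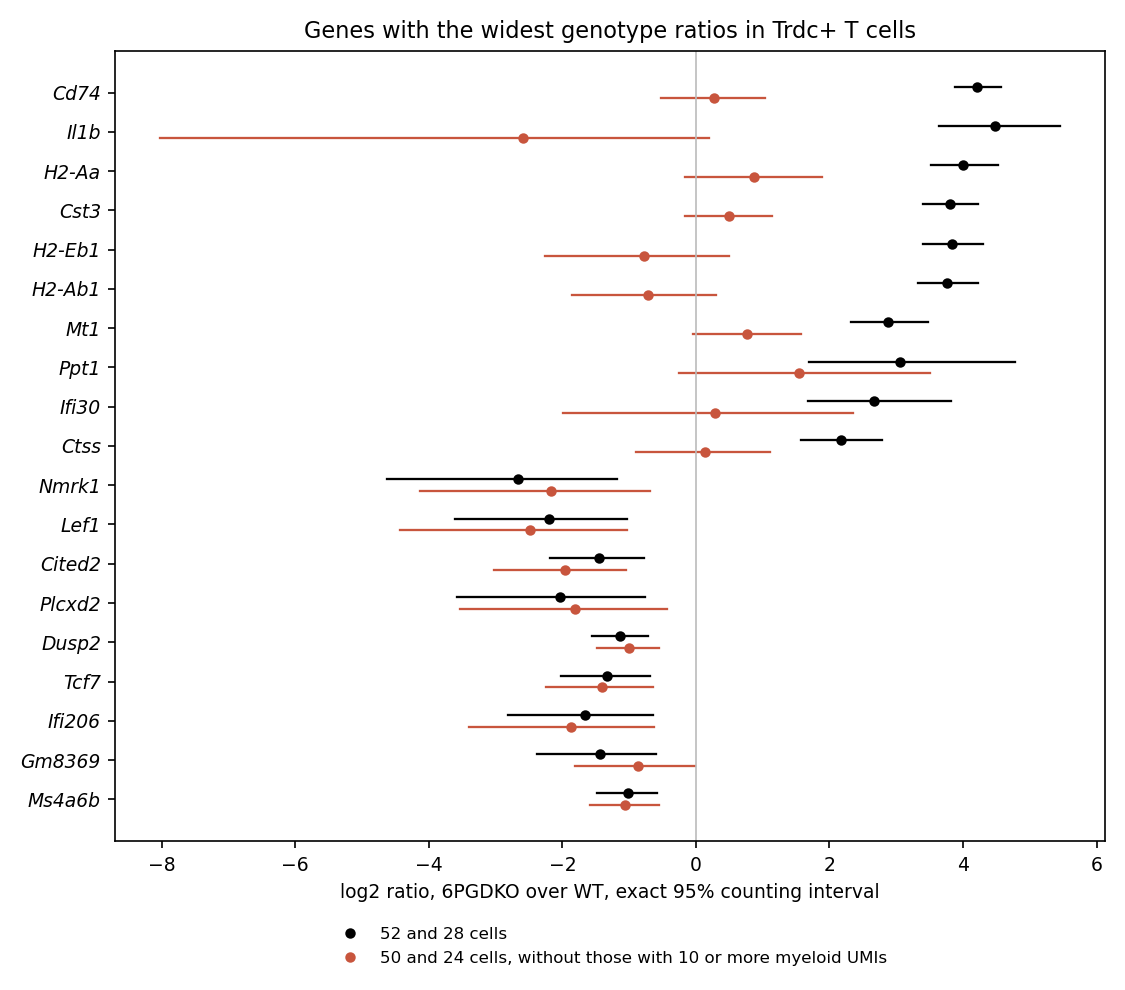
Log2 ratio of summed UMIs, 6PGDKO over WT, in Trdc+ T cells for the 10 genes with the highest and 9 of the 10 with the lowest interval bounds, with exact 95% counting intervals. Black points use all 52 and 28 cells and red points the 50 and 24 cells with fewer than 10 myeloid UMIs, where Cd74 moves from 4.21 to 0.26 and Lef1 from -2.21 to -2.49.

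Glycolysis genes lay mostly above 0 in 6PGDKO, with 14 of 15 counted genes above 0 and a median log2 ratio of 0.47. Without the 6 cells with myeloid UMIs 10 of 14 lay above 0, with a median of 0.34, and in other T cells 15 of 16, with a median of 0.41. Gapdh was at 704 and 990 CPM and Pfkp, a phosphofructokinase, at 61.3 and 126 CPM, with 46.7% of its 6PGDKO UMIs in 1 cell. Of the pentose phosphate genes, 2 of 5 counted lay above 0, with a median of -0.21. Tkt, transketolase, was at 116 and 101 CPM.

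The functional lists did not move as a whole. The 40 type 17 genes, of which 28 were counted, had a median log2 ratio of 0.12 (-0.29 to 0.53), with 16 above 0. Il17a, Il17f and Areg, the last encoding the growth factor amphiregulin, were lower, with Areg at 79 and 28 UMIs in 6 and 4 cells, a log2 ratio of -1.12 (-1.80 to -0.48), but 88.6% and 75.0% of its UMIs lay in 1 cell each. Lgals3, which encodes galectin 3, was higher, at 155 and 445 CPM, a log2 ratio of 1.52, and 1.75 (1.201 to 2.31) without the 6 cells with myeloid RNA. The interferon gamma and NK receptor genes had a median of -0.09 (-0.47 to 0.47), with 12 of 27 above 0. Klrk1 was at 113 and 210 CPM, a log2 ratio of 0.89 (0.24 to 1.56). In bulk sums such as these, fewer cells with a transcript and less of it per cell cannot be told apart except by the cell counts given.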

How the data were processed

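Single-cell libraries from 2 pools of 10 mice were deposited by the authors as filtered Cell Ranger 6.1.2 output, unnormalized UMI counts per gene and barcode on mm10, with counts of 12 multiplexing oligonucleotides. The build and version are from the submitters' processing notes. The oligonucleotides were left out of gene totals and used only to compare their counts within each cell. Barcodes were kept with the limits stated in the study (500 to 7500 genes, at most 15% mitochondrial UMIs), which left more barcodes than the study analysed. Libraries held 27245625 and 28827045 UMIs, and Trdc+ T cells 309845 and 238388. No doublet caller was run.

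UMIs were summed per library and cell set and scaled to CPM. Shares have exact Clopper-Pearson and differences Newcombe intervals, and log2 ratios exact conditional intervals, at 95%, counting error only. Ratios needed 10 UMIs, and 0 was set to a floor of 3 counts. A list's interval is the order-statistic interval of its median over genes, which are not replicates. Named genes were list members, and those with the widest interval bounds among genes with 30 UMIs, and for the genotype 10 cells (10 for the genotype and 12 and 8 for the T cell comparison, per direction). Members and lists were chosen with earlier results of these data known. Python 3.11.15, numpy 2.4.6, scipy 1.17.1, R 4.3.3 and edgeR 4.0.16 (TMM alternative) were used. The interval code was run on simulated sums with counting error only. That run cannot show how the intervals hold where single cells carry much of a gene. Alternatives varied the Trdc, C1q, Trac, gamma chain and mitochondrial limits, depth, scaling, filters and marking threshold. Some items that the rule names are not reported here.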

Additional observations from a re-analysis of the deposited data

How the results depend on the processing

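With 1 library per genotype, none could be left out. No paired analysis was possible because each genotype had 1 library. Of 87 values of the shares, list medians and Pgd ratio under the alternatives, 84 stayed within the interval of the reported value, 3 moved and 0 changed direction. With cells thinned to 2000 UMIs and the gates applied again (45 and 18 cells), the type 17-marked share was 11.1% and 33.3%, a difference of 22.2 points (1.14 to 46.0), and the median genotype ratio of type 17 genes was 0.96. With a gamma constant UMI required, the Pgd log2 ratio was -2.74 (-8.21 to 0.16) from 8 and 1 UMIs. It could not be given without Trac UMIs or after thinning, as both counts were at or below the floor. The interval of the interferon gamma-marked share, which excluded 0 as reported, reached 0 with at least 2 Trdc UMIs (14.2 points), with a gamma constant UMI (8.95), without Trac UMIs (26.7), with 1 UMI marking a cell (8.24), after thinning (3.33) and without the cells with myeloid UMIs (19.7, added after the data were seen). The share of kept barcodes excluded 0 after thinning and without the cells with myeloid UMIs (-0.545 points). Of 177 values of single genes, 123 stayed, 50 moved and 4 changed direction. These were Il1b (-2.59), H2-Eb1 (-0.78) and H2-Ab1 (-0.72) without the cells with myeloid UMIs, and Mt1 (-0.025) without Trac UMIs. Nmrk1 and Cited2 had a log2 ratio of 0 after thinning. The 6PGDKO cell with the most Gzmb was left out as a step added after the data were seen.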

Other observations

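Other gene groups were read in the same cells. Of 12 immediate early and heat shock genes, 8 lay above other T cells in WT and 10 in 6PGDKO, with median log2 ratios of 0.12 and 0.23. Fos, part of the AP-1 factor, was at 1078 and 742 CPM in Trdc+ T cells against 626 and 709 CPM in other T cells. Of 12 interferon-stimulated genes, 10 and 7 lay at or below other T cells, with Ifi27l2a at 929 and 1112 CPM against 1859 and 1706 CPM. Of 11 tissue residency genes, 7 of 11 and 6 of 10 counted lay above 0, with Itga1, an integrin of resident lymphocytes, at log2 ratios of 1.07 and 0.71. Itgae, the CD103 integrin chain, was at 116 and 243 CPM, a genotype log2 ratio of 1.07 (0.44 to 1.71), and at 0.42 in other T cells. Epithelial markers were found for 1 of 6 and 2 of 6 genes, at 6.45 and 58.7 CPM, B cell markers for 6 of 6 in both, at 297 and 210 CPM, and neutrophil markers for 2 of 5 in both, at 16.1 and 16.8 CPM. Their part in the results was not tested.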
